A study of Mus musculus with 6 samples.

Results

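Hk1, Aldoa, Aldoc, Gapdh, Pgk1, Ldha and Ldhb encode 5 enzymes of glycolysis and the 2 main lactate dehydrogenase subunits, and their transcripts were measured in mouse soleus after 1 day of reloading. The members are the 7 probes of the deposited table whose symbol in the platform annotation is one of these genes, out of 223 probes in all. Each gene had 1 probe. The soleus, a postural hindlimb muscle rich in slow fibres, came from C57Bl/6 mice titled wild-type, and the single group held 6 samples, replicates 1 to 6, with 1 array each. Per the labels, total RNA was prepared from cryosections, and 3 micrograms of it went on each array. The age and sex of the mice, the procedure before reloading, and whether the samples came from 6 animals are not given in the sources used here, so every spread and p-value below is between these samples and may be partly technical. No unloaded or untouched muscle was analysed here, and therefore no change with reloading is reported.

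Glycolysis splits glucose into pyruvate in the cytosol and yields ATP without oxygen. Hexokinase traps glucose in the cell, aldolase splits the phosphorylated hexose, and glyceraldehyde-3-phosphate dehydrogenase and phosphoglycerate kinase carry out the steps that first return ATP. Lactate dehydrogenase interconverts pyruvate and lactate as a tetramer of A and B subunits. The A subunit prevails in fast glycolytic muscle and the B subunit in heart and slow oxidative muscle. Among the aldolases, Aldoa is the muscle form and Aldoc is best known from brain.

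The arrays differed in overall signal and not all probes lay clear of background. Summed deposited intensity was highest on replicate 1 (165.3) and lowest on replicate 6 (13.8), with 35.2 to 41.3 on the other 4 arrays. The deposited intensities went below 0 on all 6 arrays, and the size of the most negative value on each array served as a bound on its background noise. Error that grows with the signal is not covered by this bound and was not assessed here. Replicate 1 had the largest bound, 0.0144, and the other arrays had bounds of 0.0011 to 0.0028. All 7 genes exceeded it on all 6 arrays, as did 130 of the 223 probes. For levels, intensities were taken as log2 and centred on each array's median over the 175 probes above 0 on all arrays, so that 0 is the median probe of the array. Ratios of genes within an array do not depend on this scale. Probes differ in brightness, so the level of one gene is not set against that of another, and only movements between arrays are read. Of 9 listed fibre markers 7 were measured, and all 7 exceeded the noise bound on every array. So did all measured markers of endothelium (5), adipocytes (2) and fibroblasts (2), so passing the bound does not single out muscle. The measured fibre markers include the slow myosin Myh7, and their summed intensity ran from 1.77 to 30.1. No marker of the nerve list or of the blood and myeloid list was on the array, so RNA of these cells could not be assessed here, although Aldoc and Hk1 are also expressed in them.

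Over all 6 samples, ratios between the 7 genes varied more where they included Ldha than where they did not. The SDs were 0.92 to 1.33 log2 units in 6 pairs and 0.24 to 0.71 in 15. Without replicate 6 these ranges overlapped, at 0.43 to 0.91 and 0.24 to 0.77. On median-centred arrays, 6 of the 7 genes had their lowest level in replicate 6, and the same number did with no scaling or relative to 28S ribosomal RNA, but only 4 when all probes set the centre and 1 after quantile normalization. Ldha was highest in replicate 6 on median-centred arrays, with all probes as the centre and after quantile normalization, but highest in replicate 1 in deposited units and relative to 28S. Of the 162 named genes, 76 were lowest and 34 highest in replicate 6 on the median-centred scale, so neither position is rare there. The lowest position was held by 46 of the 81 brighter named genes, which include 5 of the 7 members, and by 30 of the 81 dimmer ones. Over the 7 genes the median SD between samples was 0.51 log2 units, against 0.64 over all 162 named genes above 0 on every array, and 5 of the 7 lay below that value. In replicates 2 to 5 alone the medians were 0.47 and 0.46.

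**Figure D1:**
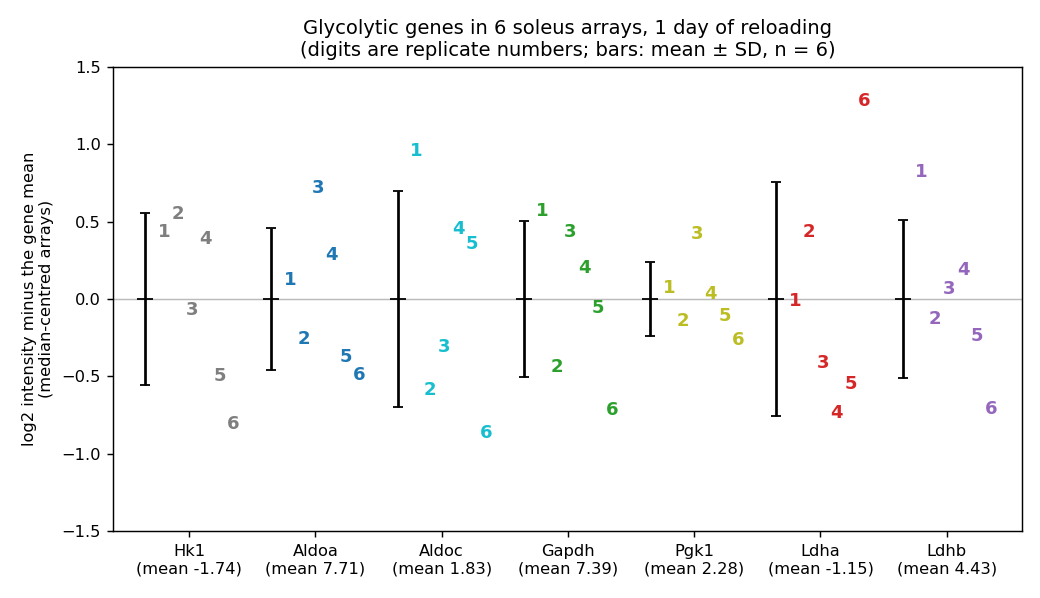
Median-centred log2 intensity of each gene minus its own mean (vertical axis, log2 units) for the 7 genes (horizontal axis), with the replicate number as the plotting mark and mean ± SD (n = 6) as the bar. Replicate 6 is the lowest mark for 6 genes (1 gene after quantile normalization) and the highest mark for Ldha (replicate 1 in deposited units).

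Hexokinase, the entry step, was weakly measured. Hk1 encodes the hexokinase found in most tissues and bound to mitochondria. Its deposited intensity had a lowest value of 0.0017, a median of 0.0054 and a highest value of 0.0262. On the centred scale it was at -1.74 ± 0.56 (SD, n = 6), with a lowest value of -2.54 in replicate 6 and a highest value of -1.18 in replicate 2. The signal was only 1.29 to 4.57 times the noise bound. Its 2.56-fold range between samples thus rests on values close to background.

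The aldolase genes were both well above background and differed in evenness. Aldoa had deposited intensities from 1.48 to 14.8 with a median of 3.45, at least 976 times the noise bound. Its centred level was 7.71 ± 0.46, highest in replicate 3 (8.43) and lowest in replicate 6 (7.22), a 2.31-fold range. Aldoc ranged from 0.0194 to 0.447 in deposited units, at least 16.9 times the bound. Its centred level was 1.83 ± 0.70, with replicate 1 highest at 2.79, replicate 6 lowest at 0.97 and a 3.53-fold range. On this scale replicates 1, 4 and 5 were high for Aldoc and replicates 2, 3 and 6 low, with a gap between 1.52 and 2.19.

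Of the enzymes of the energy-yielding steps, Pgk1 had the smallest SD of the 7 genes on median-centred arrays, although Aldoa and Ldhb had smaller ones after quantile normalization and Ldha in deposited units and relative to 28S, and Gapdh was close to the middle. Gapdh, which is often used as a reference transcript, had deposited intensities from 1.01 to 16.1 with a median of 2.94. On the centred scale it was at 7.39 ± 0.50, from 6.67 in replicate 6 to 7.96 in replicate 1, a 2.43-fold range. Pgk1, the phosphoglycerate kinase of somatic cells, ran from 0.0399 to 0.330 in deposited units. Its centred level was 2.28 ± 0.24, from 2.01 in replicate 6 to 2.70 in replicate 3, a 1.61-fold range. Without replicate 3 the SD of Pgk1 was 0.13. Scaled to the 28S probe in place of the median, Gapdh ranged 7.48-fold and Pgk1 3.88-fold, with both highest in replicate 1 and lowest in replicate 6. The 28S probe was deposited in whole hundredths, and whether it was measured like the others is not known.

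Relative to the median probe, Ldha was highest and Ldhb lowest in replicate 6, although after quantile normalization Ldhb was lowest in replicate 5. For Ldhb, the deposited intensities of replicates 1 to 6 were 2.47, 0.296, 0.348, 0.401, 0.309 and 0.131, all at least 110 times the noise bound. Replicate 1 was highest and replicate 6 lowest, as for the overall signal of the arrays. Among replicates 2 to 5 the order differed: replicate 4 had the lowest summed intensity (35.2) and the highest Ldhb. The centred level of Ldhb was 4.43 ± 0.51 with a 2.88-fold range, and the SD was 0.33 without replicate 1. For Ldha, the deposited intensities of replicates 1 to 6 were 0.0288, 0.0091, 0.0052, 0.0044, 0.0052 and 0.0108. Replicate 6 was second only to replicate 1 here, although its summed intensity was the lowest of all arrays. On the centred scale Ldha was at -1.15 ± 0.75, with values of -1.17, -0.72, -1.57, -1.89, -1.70 and 0.13, a 4.04-fold range. Replicate 6 lay 3.23-fold above the median of the other 5 arrays and 1.80-fold above the next, and without it the SD was 0.47. Ldha signal was 1.86 to 4.33 times the noise bound on replicates 1 to 5 and 9.82 times on replicate 6. Ldhc, the testis subunit and a close relative in sequence, gave 0.0367, 0.0056, 0.0040, 0.0074, 0.0166 and 0.0054 on replicates 1 to 6. How far such paralogs and processed pseudogenes of these enzymes contribute to each probe was not tested.

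Ldha, Ldhb and Pgk1 are shown by the bases upstream of their transcription start, since Ldha stood apart in replicate 6, Ldhb is its partner in the enzyme and Pgk1 had the smallest SD on the centred scale. Glycolytic genes are textbook targets of hypoxia-inducible factor, whose core site reads ACGTG, with GCGTG as its common variant. Sequences are from RefSeq, GRCm38.p6, 250 bases 5′ to 3′ on the gene's strand and ending just before the start. Capitals mark either core on either strand, and CACGTG is the first core read on both strands at once. Overlapping matches form 1 stretch. For Ldha, which has 2 listed starts, the start with more matches is shown.
Ldha (GRCm38.p6, chr7:46845554-46845803, plus strand): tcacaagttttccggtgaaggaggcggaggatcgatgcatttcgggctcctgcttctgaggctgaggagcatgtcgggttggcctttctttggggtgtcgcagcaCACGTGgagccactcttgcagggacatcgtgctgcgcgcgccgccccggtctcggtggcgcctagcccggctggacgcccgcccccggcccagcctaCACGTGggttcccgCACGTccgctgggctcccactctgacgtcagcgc
Ldhb (GRCm38.p6, chr6:142507958-142508207, minus strand): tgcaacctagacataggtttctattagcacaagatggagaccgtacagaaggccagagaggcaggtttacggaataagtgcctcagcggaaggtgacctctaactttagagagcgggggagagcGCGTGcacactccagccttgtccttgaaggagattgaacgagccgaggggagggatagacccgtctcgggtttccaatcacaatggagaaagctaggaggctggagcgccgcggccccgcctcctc
Pgk1 (GRCm38.p6, chrX:106186850-106187099, plus strand): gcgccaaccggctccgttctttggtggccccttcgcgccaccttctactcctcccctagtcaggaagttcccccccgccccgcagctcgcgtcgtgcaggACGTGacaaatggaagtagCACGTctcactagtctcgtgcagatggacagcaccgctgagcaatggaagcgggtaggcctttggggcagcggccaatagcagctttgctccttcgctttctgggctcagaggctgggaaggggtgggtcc

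The Ldha window shown held 3 stretches of matching letters, 2 of them CACGTG, the Pgk1 window 2 and the Ldhb window 1. The window of the other Ldha start held 1 stretch, as the Ldhb window did, and no CACGTG. Because the Ldha window was picked for its matches, its count is not on a par with the other genes or with the shares over all windows. Over all 32851 windows of this length in the table, 38.6% held at least 1 stretch, 13.4% at least 2 and 4.56% at least 3. All 7 genes matched the table, with 12 windows between them, of which 10 held a match. Of the 3 Aldoa windows 2 overlap and hold the same stretch, so that stretch is counted in both. A match describes letters in the sequence and no binding was measured. The transcript of the factor's alpha subunit, Hif1a, had deposited intensities from 0.0016 (replicate 6) to 0.0255 (replicate 1). On the centred scale Hif1a ranged 4.08-fold and was lowest in replicate 6. Its partner Arnt ranged 6.56-fold and was also lowest in replicate 6, as were 76 of the 162 named genes. In replicate 6 Hif1a was only 1.45 times and Arnt 2.18 times the noise bound. A part of this factor in the Ldha values was not tested. Vhl, which marks the factor for degradation, was above 0 on 0 of 6 arrays, and Ppara, a regulator of fatty acid use, was at -0.20 ± 0.33.

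The ratio of Ldha to Ldhb varied 7.53-fold between samples, with replicate 6 highest. The log2 ratios of replicates 1 to 6 were -6.42, -5.03, -6.06, -6.51, -5.89 and -3.60, with a mean of -5.58 ± 1.11 (SD, n = 6). Replicate 6 was 5.52-fold above the median of the other samples and 2.69-fold above replicate 2, the next highest. Without replicate 6 the mean was -5.98 ± 0.59 and the range 2.80-fold. When both intensities were allowed to err by the noise bound of their array, the lower limit of replicate 6 was -3.77. The highest upper limit of the other samples was -4.72, so replicate 6 stayed apart within these limits. They cover background only, not error that grows with the signal. Replicates 1, 3, 4 and 5 overlapped one another within these limits. The gap of replicate 6 was 0.490 of the whole range, which is below Dixon's critical value for 6 samples.

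The ratio of Aldoa to Aldoc varied 3.62-fold and was not set by a single sample. Its log2 values in replicates 1 to 6 were 5.05, 6.21, 6.90, 5.71, 5.15 and 6.25, with a mean of 5.88 ± 0.71. Replicate 3 was highest and replicates 1 and 5 lowest. Replicate 3, with a lower limit of 6.82, stayed above the upper limit of 6.34 of all other samples when background noise alone was allowed for. The SD was 0.57 without replicate 3 and 0.77 without replicate 6.

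**Figure D2:**
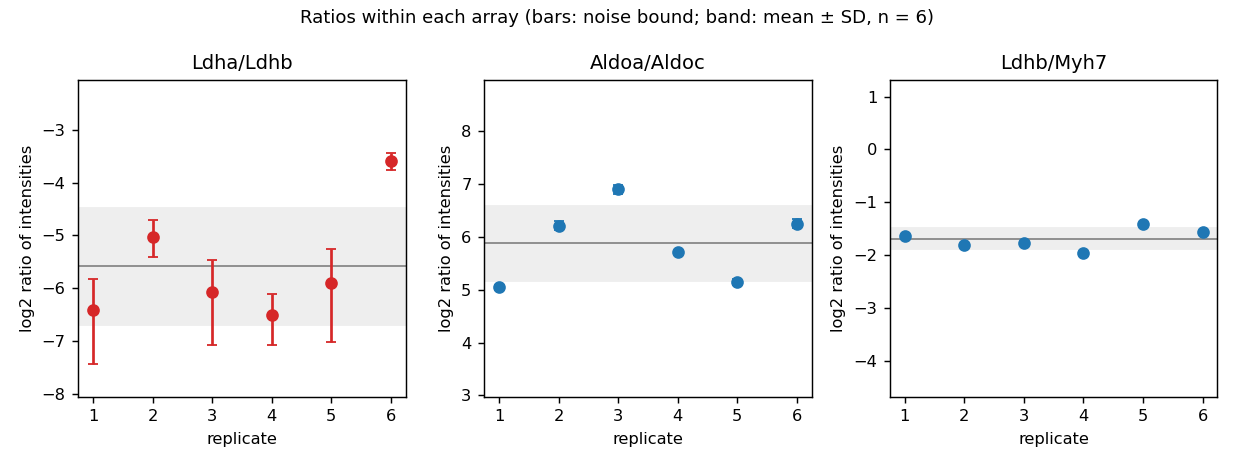
Log2 ratios of intensities within each array (vertical axis) by replicate (horizontal axis) for Ldha to Ldhb, Aldoa to Aldoc, and Ldhb to the slow myosin Myh7, on axes of equal height. Error bars show the limits when both intensities err by the noise bound, and the band is the mean ± SD (n = 6); replicate 6 lies above all other samples for Ldha/Ldhb, while Ldhb/Myh7 stays between -1.96 and -1.40.

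Measured by the SD of their log2 ratio over the 6 samples, Aldoa and Pgk1 kept the most constant ratio of the 7 genes, followed by Gapdh and Ldhb. The Aldoa/Pgk1 ratio had an SD of 0.24 and a 1.47-fold range, and Gapdh/Ldhb an SD of 0.26 and a 1.60-fold range. Aldoa/Gapdh (SD 0.31) and Gapdh/Pgk1 (SD 0.34) came next. This order depended on the arrays used. In replicates 2 to 5 alone Gapdh/Pgk1 (0.20) and Pgk1/Ldhb (0.22) were the narrowest, with Aldoa/Pgk1 at 0.28 and Gapdh/Ldhb at 0.29. The ratio of Aldoc to Ldha was the widest of the 21 pairs (SD 1.33). Among its other ratios, those of Aldoc to Aldoa (0.71), Hk1 (0.69) and Pgk1 (0.67) were wider than those to Ldhb (0.40) and Gapdh (0.44). The 6 pairs that include Ldha had SDs from 0.92 to 1.33, and the 15 pairs without it from 0.24 to 0.71. All 6 Ldha ratios were highest in replicate 6. With background noise alone allowed for, 5 of them still placed replicate 6 above all other samples, and Ldha/Hk1, of the dimmest probes, did not. In replicates 1 to 5, the Ldha pairs had SDs from 0.43 to 0.91 and the pairs without Ldha from 0.24 to 0.77. In replicates 2 to 5 the ranges were 0.49 to 0.99 and 0.20 to 0.82. The ranges thus overlapped once replicate 6 was left out.

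Over all 21 pairs the median SD was 0.54, against 0.93 over the 13041 pairs of named genes, and 16 of the 21 lay below 0.93. Against pairs of genes above the noise bound, whose median was 0.73, 15 of 21 lay below. In replicates 2 to 5 alone the medians were 0.57 and 0.68. Taking the noise bound off every intensity raised the median of the 21 pairs to 0.96, against 0.95 for all pairs still measured. The brighter probes did not share this rise: the 10 pairs among Aldoa, Aldoc, Gapdh, Pgk1 and Ldhb, a selection made after the values were seen, had a median SD of 0.42 as deposited and 0.43 with the bound taken off. These counts describe the list and are not a test of it.

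**Figure D3:**
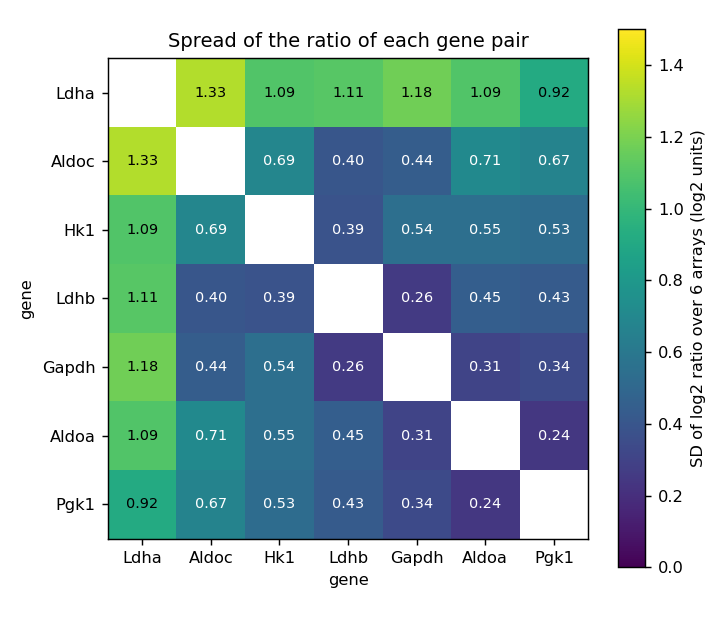
SD over the 6 samples of the log2 ratio of each pair of genes (colour and printed value, log2 units), with the 7 genes on both axes. The row of Ldha holds the widest ratios, 0.92 to 1.33, and Aldoa with Pgk1 the narrowest, 0.24. Without replicate 6 the Ldha pairs ran from 0.43 to 0.91 and the others from 0.24 to 0.77.

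Outside the 7 genes, the transcripts whose ratios to them were most constant were found among 116 named genes above the noise bound on all arrays. For Ldhb these were muscle myosins: Myh2, the type IIa heavy chain (SD of the log2 ratio 0.14, 1.32-fold range), and next Myh7, the slow type I heavy chain (0.20, 1.47-fold). For Gapdh it was Dgat1, an enzyme of triglyceride synthesis (0.15), and for Aldoc the muscle cytochrome oxidase subunit Cox6a2 (0.31). Csk, a kinase that restrains Src, was nearest both to Aldoa (0.11) and to Pgk1 (0.16), and Myog, a factor of muscle differentiation, was nearest to Hk1 (0.22). Csk and Dgat1 were dim, at 1.35 to 3.71 and 1.68 to 4.21 times the noise bound, and their closeness to these genes is uncertain for that reason. The closeness of Myog to Hk1 is uncertain too, because Hk1 itself was at 1.29 to 4.57 times the bound. For Ldha the nearest gene was Pdgfra, a receptor of connective tissue cells (0.32, 1.80-fold), which was also dim at 1.43 to 5.45 times the bound. The next nearest was Lpl, the lipoprotein lipase of fat and muscle (0.34, 2.01-fold), which is named here as a choice made after its values were seen. Lpl was at 2.75 in replicate 6 and 2.51 in replicate 2 on the centred scale and between 1.63 and 1.81 in the others. Ldha was highest in replicates 6 and 2 too, but Lpl was picked for its closeness to Ldha, so this is no separate observation. In deposited units both genes were highest in replicate 1. For the mean of the 7 genes the nearest were the fatty acid carrier enzyme Cpt1b (0.18), Vegfb (0.19), Myh2 (0.21), Jun (0.24) and Des (0.25). Each of these was picked as the smallest of 116 SDs over 6 samples.

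Markers of other cell types did not move in one direction in replicate 6. Of 5 adipocyte markers 2 were measured: Pparg, a regulator of fat cells, was highest in replicate 6 at 0.0345 in deposited units, and Fabp4, the fatty acid carrier of fat cells, was lowest there at 0.0231. In these units 6 of the 162 named genes were highest and 111 lowest in replicate 6, so only the position of Pparg was rare. On the centred scale Pparg ranged 10.95-fold, again highest in replicate 6, and Fabp4 3.04-fold, again lowest there. The summed intensity of these adipocyte markers ran from 0.0576 to 0.487. Of 6 endothelial markers 5 were measured, with a sum from 0.106 to 0.475, and on the median-centred scale Kdr and Flt1 were highest in replicate 6 while Cdh5 was lowest there. With all probes as the centre Kdr was highest in replicate 1 and Cdh5 lowest in replicate 2, and after quantile normalization Cdh5 was lowest in replicate 1. Of 5 fibroblast markers Pdgfrb and Fn1 were measured, with a sum from 0.0371 to 0.376, and Fn1 was lowest in replicate 6. Of the 81 dimmer named genes 22 had their highest centred value in replicate 6, and of the 81 brighter ones 12. Ldha and Hk1 belong to the dimmer group, and the other 5 genes to the brighter one. The part of other cell types, of dimness and of the low overall signal of replicate 6 in its Ldha value was not tested, and fewer cells of a type cannot be told apart from less RNA per cell.

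The isoform ratios were set against the balance of fast to slow myosin and against the overall signal of the arrays, in 5 relations over the 6 samples with two-sided exact permutation tests over all 720 pairings. None of the 5 passed an adjusted p of 0.05 (Benjamini-Hochberg over the 5), and 0 had an unadjusted p under 0.05. Myh4 encodes the fast type IIb heavy chain, and its log2 ratio to Myh7 was -1.15, -1.01, -0.0011, -1.24, -0.84 and -0.99 in replicates 1 to 6. Replicate 3 stood alone on this ratio, with an SD of 0.45 over all samples and 0.15 without it. Ldha/Ldhb did not follow Myh4/Myh7, with Pearson's r = -0.070 (p = 0.889 by exact permutation, 0.889 once adjusted) and Spearman's rho = 0.49 (p = 0.356 by exact permutation, 0.621 once adjusted). Leaving out replicates 2 and 6, whose Ldha/Ldhb was farthest from the median, gave r = 0.62, and leaving out replicate 3 gave 0.44. With the type IIa chain Myh2 in place of Myh4, r was 0.83 (p = 0.0403 by exact permutation, 0.201 once adjusted), and with the type IIx chain Myh1 it was 0.073. The Myh2/Myh7 ratio itself moved only 1.39-fold and was highest in replicate 6.

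Aldoa/Aldoc had r = 0.67 with Myh4/Myh7 (p = 0.124 by exact permutation, 0.447 once adjusted) and rho = 0.54 (p = 0.297 by exact permutation, 0.621 once adjusted). The relation depended on replicate 3, the sample highest in both: r was 0.0074 without replicate 3 and -0.32 without replicates 1 and 3. Between the isoform ratios themselves r was 0.38 (p = 0.489 by exact permutation, 0.611 once adjusted) and rho 0.43 (p = 0.419 by exact permutation, 0.621 once adjusted). Without replicates 2 and 6 this r was 0.18, without replicate 1 it was 0.22, and without replicate 3 it was 0.76.

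Against the log2 summed intensity of the array, Ldha/Ldhb had r = -0.72 (p = 0.179 by exact permutation, 0.447 once adjusted) and rho = -0.37 (p = 0.497 by exact permutation, 0.621 once adjusted). Leaving out replicates 2 and 6 gave r = -0.42, leaving out replicate 6 alone gave -0.40, and replicates 2 to 5, whose totals were alike, gave 0.14. Aldoa/Aldoc had r = -0.51 with the summed intensity (p = 0.268 by exact permutation, 0.447 once adjusted) and rho = -0.26 (p = 0.658 by exact permutation, 0.658 once adjusted). Without replicates 1 and 3 this r was -0.51, and without replicate 1 alone it was -0.046. In replicates 2 to 5 it was 0.92 (p = 0.0833 by exact permutation, 0.417 once adjusted). With 6 samples these tests leave wide room for relations of either sign.

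**Figure D4:**
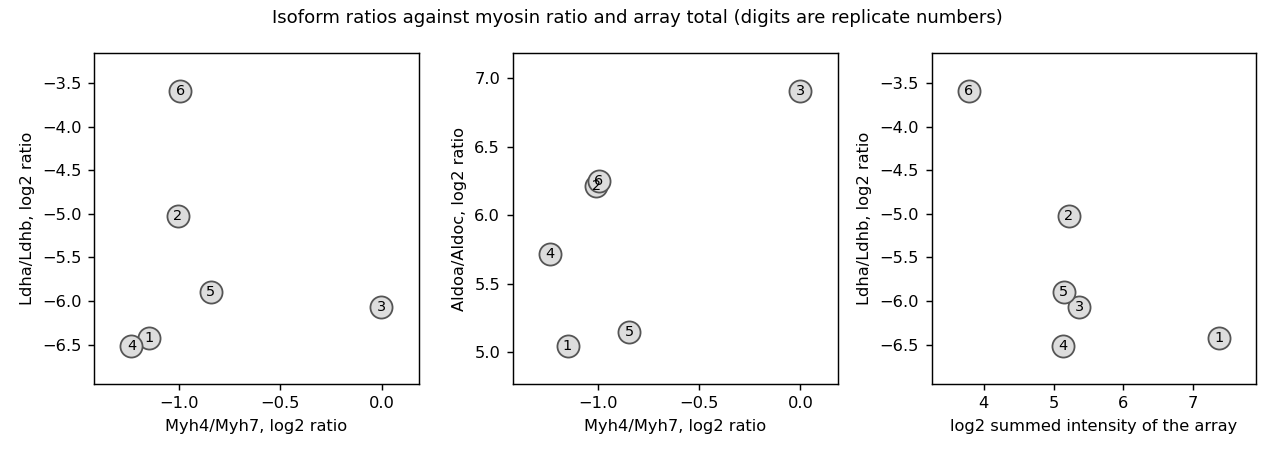
Ldha/Ldhb and Aldoa/Aldoc log2 ratios against the Myh4/Myh7 log2 ratio (left and middle), and Ldha/Ldhb against the log2 summed intensity of each array (right), with 1 numbered point per replicate. Replicate 3 lies alone at the high end of Myh4/Myh7, and replicate 6 combines the highest Ldha/Ldhb with the lowest summed intensity.

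Of 32 further genes of glucose use in a list drawn up for this pathway, 6 were on the array, and 5 of them exceeded the noise bound on every array. On median-centred arrays the transporter genes differed in which sample was high, whereas in deposited units all 3 were highest in replicate 1. Slc2a1, the transporter of most tissues, was at -0.48 ± 0.37 on the centred scale, and Slc2a4, the insulin-regulated transporter of muscle and fat, at 1.63 ± 0.47 with its highest value in replicate 3. Slc2a3, a transporter known from neurons and platelets, gave 0.0266, 0.0055, 0.0072, 0.0072, 0.0098 and 0.0099 in deposited units. On the centred scale it was highest in replicate 6, as Ldha was, with a 2.73-fold range. Pdha1, a subunit of the pyruvate dehydrogenase that carries pyruvate into mitochondria, was at 2.95 ± 0.70 and was lowest in replicate 6. Ldhc was at -1.04 ± 0.64, and the insulin receptor gene Insr exceeded the noise bound on 4 of 6 arrays.

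Among enzymes added after the values were seen, Eno2, the enolase best known from neurons, was at 0.99 ± 0.31, and Mdh2, the mitochondrial malate dehydrogenase, at 2.12 ± 0.53. Slc2a2, the transporter of liver and pancreatic islets, was at 0.28 ± 0.63. Pdha2, the testis form of Pdha1, was above 0 on 3 arrays and above the noise bound on 0. Pcx, pyruvate carboxylase, exceeded the bound on 0 arrays, and Pfkfb2, which makes a regulator of phosphofructokinase, on 1. A value at or under the bound leaves the transcript's presence unknown.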

How the data were processed

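Soleus RNA of 6 samples of 1 group was measured on arrays of 223 probes. The deposited values are linear intensities. How the authors scanned the arrays, subtracted background or normalized is not given in the sources used here. Probes were named from the platform annotation, which gave 205 probes 1 gene each; where a gene had 2 probes, the brighter one stood for it. No array pair of 15 held identical values. Intensities were converted to log2 without a pseudocount and centred on each array's median of the 175 probes above 0 on all arrays. Log2 ratios within arrays used the deposited intensities. Relations were tested by exact permutation (Python 3.11.15, numpy 2.4.6, pandas 2.3.3), and the calculations were tested on simulated data. The members, the gene lists and the relations were chosen with earlier results of these data known. Named genes are the 7 members, the nearest gene to each and the 5 nearest to their mean by SD of the log2 ratio, and all measured genes of the fixed lists; any other is named as chosen after its values were seen. Alternatives were quantile normalization, no scaling, scaling to 28S, centring on all probes, a noise filter, a shifted background and leaving out arrays. Precision is limited by having 6 arrays.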

Additional observations from a re-analysis of the deposited data

Results flagged for a closer look

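In 3 of 32 sets of 6 values, the highest or lowest sample lay beyond Dixon's 95% critical value for its distance from the rest. Chance alone gives such a sample in about 1 in 20 sets, or 1.6 of these, and the sets overlap because pairs share genes. The log2 ratio of Hk1 to Ldha was -2.67 in replicate 6, against -0.53 to 0.54 in the other samples; both probes are dim, and with the noise bound allowed for, replicate 6 was not separated from the others. The Myh4/Myh7 log2 ratio was -0.0011 in replicate 3, against -1.24 to -0.84 in the others. The summed intensity of replicate 1 was 165.3 in deposited units, against 13.8 to 41.3 on the other arrays. This set was taken in linear units, whereas all the others were log2 levels or log2 ratios. On the log2 scale the totals were 7.37 on replicate 1, 3.79 on replicate 6 and 5.14 to 5.37 on replicates 2 to 5. Dixon's value was not computed on that scale, so this flag may rest on the unit.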

How the results depend on the processing

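Of 183 recomputed values over 16 results, 164 were counted as unchanged. Correlations had to keep their direction and side of the threshold, and mean log2 ratios their size within the spread between samples. Of the 183 values, 109 were SDs or medians of SDs, and 97 of these were counted as unchanged. An SD counted as changed only if it moved by at least its value under the main processing, so no fall could count. Those 97 therefore do not show that the SDs were stable. In deposited units the SDs were 1.31 for the median of the members, 1.31 for Hk1, 1.14 for Aldoa, 1.55 for Aldoc, 1.33 for Gapdh, 1.02 for Pgk1 and 1.40 for Ldhb, and that of Ldha was 1.01. Scaled to 28S the median was 1.09. The SDs were 1.09 for Hk1, 0.97 for Aldoa, 1.31 for Aldoc, 1.10 for Gapdh, 0.78 for Pgk1, 0.77 for Ldha and 1.15 for Ldhb. The medians of all named genes were 1.15 in deposited units and 1.00 scaled to 28S. With no scaling, the differences in overall signal stay in the values. Scaling to 28S alters them by that probe, which was lowest on replicate 4 (1.35) and not on replicate 6 (1.80). Quantile normalization, which fixes the brightest values, gave SDs of 0.14 for Aldoa and 0.18 for Ldhb. The correlation of Ldha/Ldhb with Myh4/Myh7 changed sign under quantile normalization (0.076), with Myh1 (0.073) and with Myh2 (0.83), and ran from -0.28 to 0.44 when 1 array was left out. In replicates 2 to 5, chosen after seeing the data, the correlations with summed intensity were 0.14 for Ldha/Ldhb and 0.92 for Aldoa/Aldoc. Their adjusted p-values by exact permutation were 0.958 and 0.417, and the cause was not tested. Signal over background limits Hk1 and Ldha, whose lowest values were 1.29 and 1.86 times the noise bound. No paired analysis was possible because the labels give a single group.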
